A study of Homo sapiens with 28 samples.

Results

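Collagens are the triple-helical proteins of the extracellular matrix, and 37 human collagen genes were followed here through the accessible chromatin of the ovarian cancer cell line Kuramochi. Members were chosen by name, and every consensus ATAC-seq peak that overlapped one of these genes or the 10 kb on either side of it (RefSeq positions, GRCh38) was assigned to it. This gave 351 of the 105048 peaks and 353 gene and peak pairs, since 2 peaks were each shared by 2 genes. All 37 genes had at least 1 peak, from 1 at COL3A1 to 28 at COL14A1, and the median width of the collagen peaks was 1101 bp. The rule uses gene names and positions and no measured value, though the family was picked with earlier results of these data known. All 351 peaks were tested, because the filter on low counts removed 0 peaks. A further protein-coding gene was overlapped by 17 of the collagen peaks.

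Kuramochi is a BRCA2-mutant line, and olaparib inhibits PARP enzymes, which act in DNA repair. Accessibility was measured by Omni-ATAC-seq, in which a transposase cuts open chromatin, in 10 populations with 2 libraries each. C was untreated, with a sort on CD24 and CD44. Adapted cells make up 7 populations. These T populations, T5 and T10 up to T160 and T320 with T20, T40 and T80 between them, were grown on in olaparib, are named by its dose in uM, and were sorted for low CD24 and high CD44. The P10 and P320 cells, called persister cells in the labels, had met no drug before 9 days at 10 or 320 uM. For these no sort is named, so the sort cannot be told apart from the kind of exposure wherever P10 or P320 is compared. All populations come from 1 line, and the labels do not say that the libraries of a population came from separate cultures, so the tests measure the spread between libraries, which may be technical. Values are CPM (library-scaled counts), scaled by the trimmed mean of M values (TMM). A peak is called gained or lost, or higher or lower between drug-exposed populations, at an adjusted p under 0.05 (edgeR quasi-likelihood test, Benjamini-Hochberg over all peaks) and a log2 fold change of 1 or more in size. Errors beside log2 changes are standard errors of that fit. A window offset, named beside some results, subtracts the median shift of each 5 Mb stretch of chromosome in each library as a stand-in for DNA copy number, and it includes the collagen peaks themselves. In a bulk library, fewer cells with an open site and less opening in each cell cannot be told apart.

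Fibrillar collagens (types I, II, III, V, XI, XXIV and XXVII) assemble into the fibrils that give tissue its tensile strength. Type IV collagens form the sheet-like network of basement membranes, type VI forms beaded filaments, and types VIII and X form short-chain networks. FACITs (types IX, XII, XIV, XVI, XIX, XXI and XXII) sit on fibril surfaces, transmembrane collagens (types XIII, XVII, XXIII and XXV) are anchored in the cell membrane, and multiplexins (types XV and XVIII) lie near basement membranes. Accessible chromatin at a gene shows where regulators can bind and is not a measure of its RNA.

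Total counts per library lay between 9627970 and 29699950. Replicate 1 of C and of the T populations held 9627970 to 15526256 counts, replicate 2 held 19092182 to 28547221, and collagen peaks took 0.283% to 0.342% of each library. Of 11 epithelial marker genes 10 had a promoter or gene-end peak, and their summed level was 155 to 190 CPM in C, 136 to 148 in T320, 202 to 209 in P10 and 254 to 254 in P320. Fibroblast markers, 4 of 8 measured, summed to 27.7 to 30.7 CPM in C, 52.2 to 59.6 in T320, 43.9 to 46.4 in P10 and 40.6 to 43.5 in P320. PDGFRB, FAP and FBN1 were gained in T320. Of the epithelial markers KRT18 was gained, and CLDN3, WT1 and MUC16 were lost. Of 4 endothelial markers 2 were measured, VWF and TIE1, both lost in T320, and they summed to 13.8 CPM in each C library, 3.36 to 4.97 in T320 and 7.66 to 7.99 in P320. The part these shifts play in the collagen results was not tested.

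As a family, the collagens were gained and lost in T320 in nearly the same shares as all peaks, whereas in P320 lost peaks far outnumbered gained ones. In T320 against C, 49 of 351 collagen peaks were gained (14%) and 54 lost (15.4%), where 15.0% of all peaks were gained and 15.5% lost. In P320 against C, 5 collagen peaks were gained (1.42%) and 44 lost (12.5%), against 3.94% and 7.91% of all peaks. Most collagen peaks lie away from promoters and gene ends, and of all peaks placed so 2.01% were gained and 9.22% lost in P320. The medians were -0.08 for T320 and -0.24 for P320 on the log2 scale, against -0.01 and -0.11 over all peaks. Set directly against P320, T320 was higher at 77 collagen peaks (21.9%) and lower at 46 (13.1%), where 19.7% and 14.5% of all peaks were. Leaving out T320 replicate 2 reduced the 54 lost peaks of T320 to 31 and the 46 lower peaks to 27. Those 46 were 19 with TMM factors taken from gene-end peaks alone and 29 under the window offset. For P320, the 44 lost peaks became 17 without its replicate 1 and 21 without its replicate 2, and 102 with the gene-end factors. The 5 gained in P320 became 8 without either C library.

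**Figure D1:**
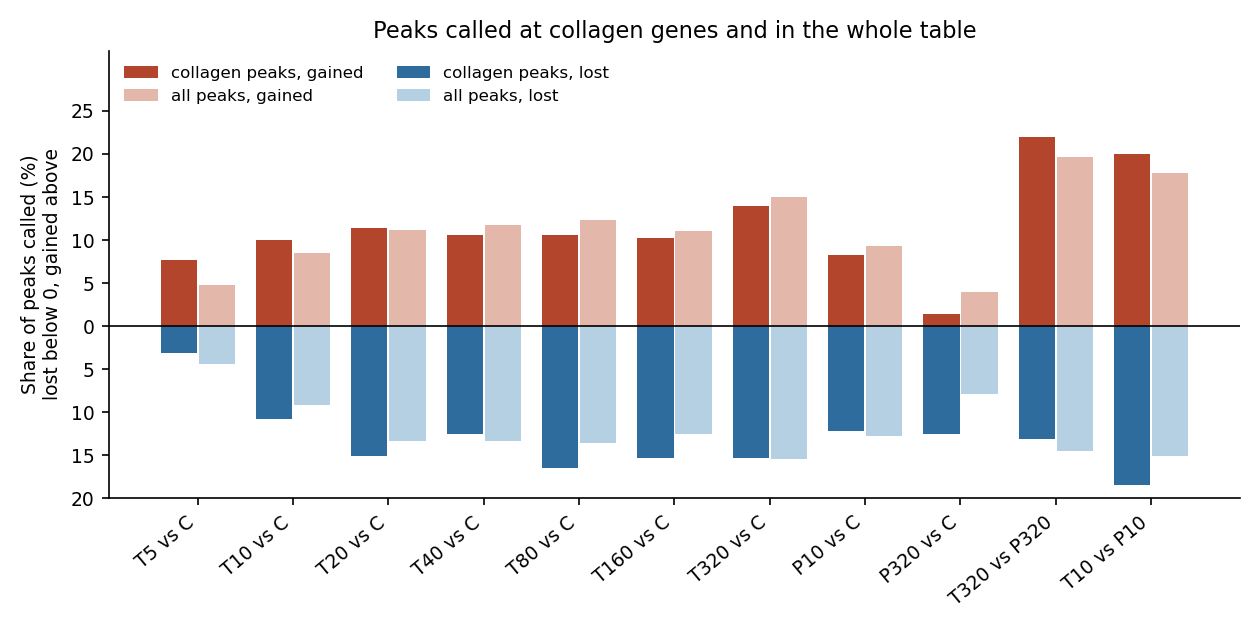
Percent of the 351 collagen peaks and of all 105048 peaks that were gained (upward bars) or lost (downward bars) in each of 11 comparisons. In most comparisons the collagen bars lie near those of all peaks. For P320 against C, 12.5% of collagen peaks were lost against 7.91% of all peaks. Of all peaks away from promoters and gene ends, which are not drawn apart, 9.22% were lost there.

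T320 and P320 share the control C, so their calls are given side by side. The matching counts over all peaks were not taken, so whether these overlaps are particular to collagens was not tested. Of the 49 peaks gained in T320, 11 were lost in P320 and 38 were not called there. Only 5 collagen peaks were gained in P320, and none of these was lost in T320. Of the 54 lost in T320, 7 were also lost in P320. P320 had a further 26 lost peaks that were not called in T320, and 18 of them were higher in T320 than in P320 in the direct test. The 11 opposite peaks, whose choice fixes that T320 lies above P320, lay in COL14A1 (6 peaks), COL19A1 (2), COL1A2, COL5A2 and COL25A1 (1 each).

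To set a whole gene against another measure, the counts of all its peaks were summed, and a gene was called at an adjusted p under 0.05 with no fold minimum (edgeR quasi-likelihood test over 17857 genes). Gene sums were scaled by library totals and TMM factors of their own, so their values are not on the scale of the single peaks. At COL3A1, whose sum is 1 peak, the change in P320 was -0.72 as a peak and -0.96 as a sum, and only the sum was called. In T320, 8 collagen genes were higher than in C and 11 lower, where 26.4% and 29.3% of all genes were. In P320, 0 collagen genes were higher and 17 were lower, where 14.2% and 15.4% of all genes were. At an unadjusted p under 0.05, 2 collagen genes were higher in P320, and DESeq2 called 1. T320 was higher than P320 at 21 collagen genes and lower at 7, against 28.7% and 30.2% of all genes. The median log2 difference of the collagen gene sums from C was 0.03 in T320 and -0.35 in P320, where the median over all genes was 0.02 and -0.03. All genes are not matched for place, and most collagen peaks lie away from promoters and gene ends. In P320, 15.4% of all promoter peaks were gained, while 9.22% of peaks away from promoters and gene ends were lost. Whether collagen sums differ from those of genes with like peak places was not tested. The 17 lower genes of P320 became 11 without C replicate 1, 10 without either P320 library and 30 with TMM factors from gene-end peaks.

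**Figure D2:**
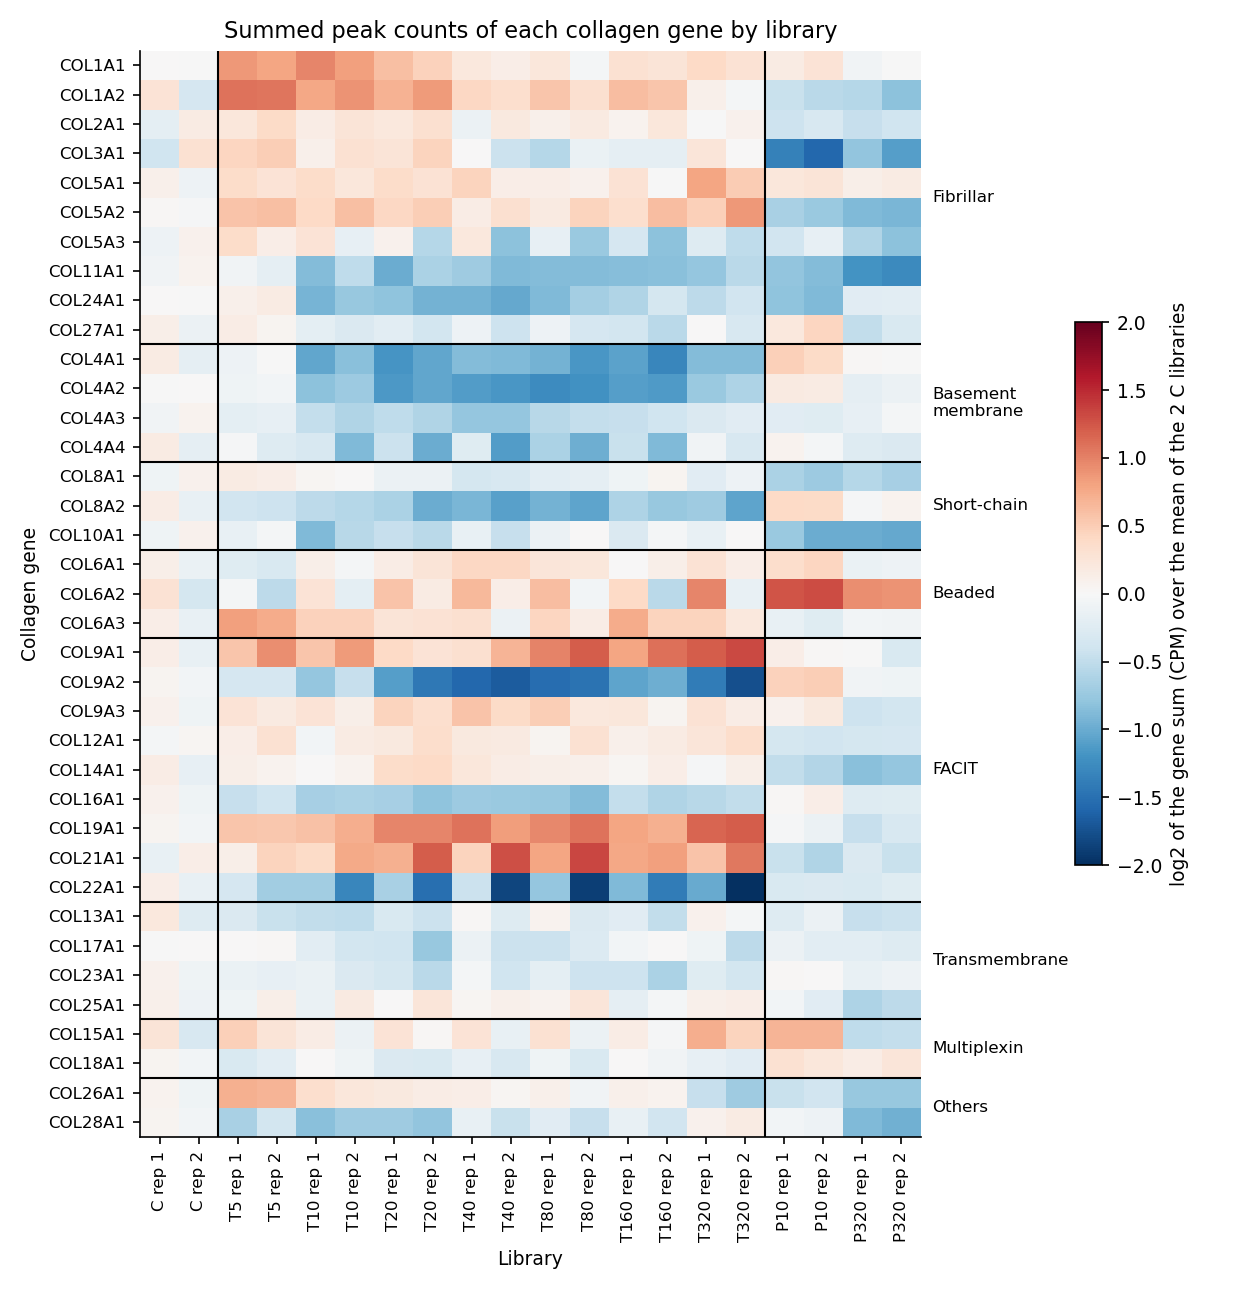
Summed accessibility of each of the 37 collagen genes (rows, ordered by role) in each of 20 libraries (columns), as log2 of CPM over the mean of the C libraries; red is above C and blue below. COL9A1 and COL19A1 are above C in the T320 libraries, COL4A1, COL4A2, COL9A2 and COL22A1 are below, and COL5A2 is above C in the T libraries and below it in the P libraries.

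Of 77 fibrillar peaks, 17 were gained (22.1%) and 7 lost (9.09%) in T320, against 15.0% and 15.5% of all peaks, with a median of 0.21. Of the 17, 8 lay in COL5A2 and 5 in COL5A1. P320 gained 1 and lost 16 (20.8%, against 7.91% of all peaks and 9.22% of those away from promoters and gene ends), with a median of -0.37. T320 was higher than P320 at 29 and lower at 4, where 19.7% and 14.5% of all peaks were. Of all peaks away from promoters and gene ends, 22.6% and 13.4% were. The 7 lost peaks in T320 became 2 without T320 replicate 2, the 4 lower became 2 without it and 8 without T320 replicate 1, and the 16 lost in P320 became 6 without P320 replicate 1. In the gene sums, 3 of 10 fibrillar genes were higher and 2 lower in T320 than in C (median 0.04), against 26.4% and 29.3% of all genes. In P320, 6 were lower than in C (15.4% of all genes), and T320 was higher than P320 at 7 (28.7% of all genes).

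COL5A2, which encodes the alpha2 chain of type V collagen that helps to set fibril diameter, stood above C in adapted cells and below it in persister cells. Its summed level was 81.6 and 78.9 CPM in the C libraries, 111 and 146 in T320, 51 and 48 in P10, and 43.6 and 42.5 in P320. Every T library lay above both C libraries, and every P library lay below them. The log2 change was 0.69 ± 0.13 (SE) in T320 (adjusted p = 2.2e-04) and -0.90 ± 0.13 in P320 (adjusted p = 1.1e-04), and T320 exceeded P320 by 1.58 ± 0.13 (adjusted p = 4.7e-08). The 18 peaks of the gene lie across a very long RefSeq span that reaches the start of WDR75. By the rule, peaks far from the main COL5A2 transcript are counted as peaks of the gene, also in its sum. Of these, 8 were gained in T320, 6 were lost in P320, and 16 were higher in T320 than in P320. The 6 lost became 3 without C replicate 1 or either P320 library, 2 under the window offset and 10 with TMM factors from gene-end peaks. Which transcripts of this long span the cells use was not tested.

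A peak deep in the COL5A2 span, chr2:189285743-189286623, showed the opposite movement. It held 2.54 and 1.23 CPM in C, 6.08 and 10.5 in T320, and 0.812 and 0.446 in P320. The T320, C and P320 libraries did not overlap there. T320 was higher than C by 2.20 ± 0.37 and higher than P320 by 3.72 ± 0.40 (adjusted p = 9.9e-07). Its loss in P320, -1.52 ± 0.42 (adjusted p = 1.7e-02), was -0.95 without C replicate 1, -1.12 without P320 replicate 2 and -1.1 under the window offset, none of them called. The peak at chr2:189163716-189164547 was gained in all 7 T populations, with 1.15 and 0.424 CPM in C and 3.34 and 5.06 in T320, a log2 change of 2.52 ± 0.48 that was 3.30 without C replicate 1 and 1.88 without C replicate 2. At chr2:189276202-189276850 the level was 0.821 and 0.707 CPM in C, 3.34 and 5.56 in T320 and 0.212 and 0.409 in P320, and T320 exceeded P320 by 3.84 ± 0.46. By contrast, the peak at chr2:189096582-189097904 held 6.48 and 4.29 CPM in C and 6.76 and 6.5 in T320 but 0.741 and 1.49 in P320, a change of -2.25 ± 0.35 in P320 (adjusted p = 3.0e-04).

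**Figure D3:**
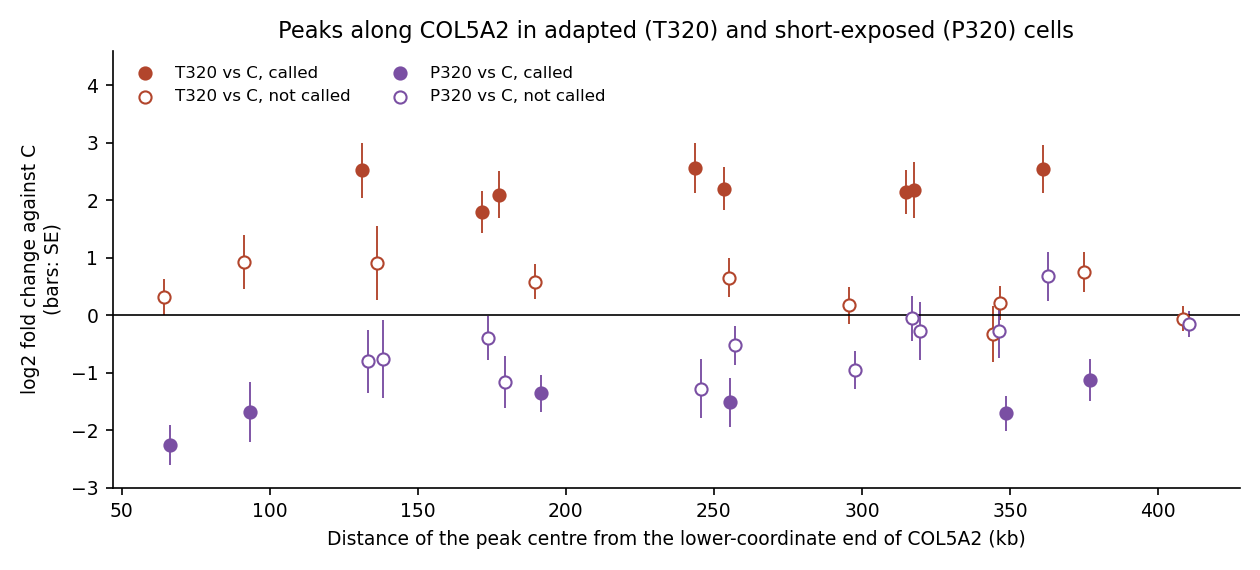
Log2 change with its standard error at the 18 peaks of COL5A2 against distance from the lower-coordinate end of the gene (kb), for T320 against C and P320 against C. The T320 points lie above the P320 points at 17 of the peaks. At the exception, 345.4 kb from that end, neither change was called.

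COL5A1, the alpha1 chain of type V collagen, gained 5 of 14 peaks in T320 and 1 in P320. Its summed level was 97.3 and 84.4 CPM in C, 157 and 130 in T320, and 98.4 and 101 in P320, and the rise in T320 was 0.66 ± 0.12 (adjusted p = 1.7e-04). Both T320 libraries lay above C and P320, and P320 lay just above C. An intragenic peak at chr9:134661840-134663032 was gained in all 7 T populations, from 3.04 and 2.78 CPM in C to 11.5 and 13.8 already in T5 and 10.5 and 12.2 in T320, with 2.08 and 1.97 in P320. The change was 2.13 ± 0.26 in T5 and 1.97 ± 0.26 in T320 (adjusted p = 1.2e-05). The 1 peak gained in P320, at chr9:134706660-134707981, rose from 8.62 and 9.1 CPM in C to 23.7 and 23.4 (1.41 ± 0.18), and came to 0.93 and no call with TMM factors from gene-end peaks.

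Type I collagen is the main fibrillar collagen, with chains encoded by COL1A1 and COL1A2. At COL1A2 a single gene-body peak, chr7:94414487-94415278, was gained in all 7 T populations. It held 0.985 and 0.896 CPM in C, 4.56 and 4.49 for T5, 5.25 and 4.93 for T10, 2.83 and 3.85 in T320, 0.794 and 0.785 in P10, and 0.388 and 0.372 in P320. Every T library stood above every C and P library. The change was 2.43 ± 0.34 in T10 (1.66 under the window offset) and 1.85 ± 0.34 in T320 (adjusted p = 3.1e-04), and T320 exceeded P320 by 3.13 (2.52 under the window offset). The loss in P320, -1.28, was not called without any 1 library of C or P320 (-1.36 to -1.21), with DESeq2 (-1.27) or under the window offset (-0.95). At COL1A1 the gene-end peak, chr17:50199976-50201645, was gained in T10 alone of the T populations, from 11.5 and 18.1 CPM in C to 30.5 and 33.2 in T10 (1.10 ± 0.19, adjusted p = 4.1e-04), and held 17.1 and 16.2 in T320 (0.16). That gain was under the fold minimum without C replicate 1 (0.82) and under the window offset (0.76). COL3A1, which forms fibrils in skin and vessel walls, had 1 peak, in the gene body at chr2:188978278-188979974. It held 5.99 and 11.7 CPM in C, 9.93 and 9.63 in T320, 3.62 and 3.09 in P10 and 6.07 and 4.79 in P320, and was lost in P10 (-1.42 ± 0.28, adjusted p = 1.1e-03), though not without C replicate 2 (-0.84) or under the window offset (-0.79). Its change in P320 (-0.72) was not called, while the gene sum, scaled apart, was called lower (-0.96).

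The sum of COL11A1, a minor fibrillar chain, was lower than C in both T320 and P320. The sum of COL11A1 fell from 37.7 and 41.3 CPM in C to 23.2 and 27.2 in T320 (-0.65 ± 0.14, adjusted p = 8.1e-04; 0.02 under the window offset) and to 17.3 and 16.4 in P320 (-1.23 ± 0.14, adjusted p = 2.1e-05). T320 and P320 both lay below C, with P320 lowest. Its peak at chr1:103083599-103085603 fell from 14.8 and 25.4 CPM in C to 3.85 and 2.82 in T320 (-2.62 ± 0.33; -1.96 under the window offset). The sum of COL24A1, a further fibrillar chain, fell from 91.1 and 89.3 CPM in C to 62.8 and 69.4 in T320 (-0.44 ± 0.10, adjusted p = 1.3e-03; 0.17 and not called under the window offset). In P320 it held 77.4 and 77.9 and was not called (-0.22 ± 0.10, adjusted p = 0.11; -0.56 and called with TMM factors from gene-end peaks). COL24A1 lost 7 of its 11 peaks in P10 and 4 in P320 (2 without either P320 library), and in T320 it gained 1 and lost 2. Among the other fibrillar genes, COL27A1 gained 1 and lost 2 of 13 peaks in T320, COL5A3 lost 1 of 2, and COL2A1, the cartilage collagen, lost 1 of 4 in P320.

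At basement membrane collagens lost peaks outnumbered gained ones in T320, and few peaks were called in P320. Of the 39 peaks of COL4A1, COL4A2, COL4A3 and COL4A4, 1 was gained and 11 lost in T320 (2.56% and 28.2%, against 15.0% and 15.5% of all peaks, median -0.58). In P320 1 was lost, against 7.91% of all peaks, with a median of -0.04. The promoters, shared in pairs by the 4 genes, nevertheless had a median of 0.92 over genes. T320 was lower than P320 at 12 and higher at 1, against 14.5% and 19.7% of all peaks. Without T320 replicate 2 the 11 lost became 7, as they did without C replicate 2, and the 12 lower became 6. The summed level of COL4A2 was 177 and 181 CPM in C, 170 and 173 for T5, 101 and 109 for T10, 74.8 and 77.6 in T80, 108 and 116 in T320, 203 and 201 in P10, and 158 and 165 in P320. All libraries from T10 to T320 lay below all C, T5 and P libraries. The change in T320 was -0.68 ± 0.07 (adjusted p = 5.7e-07), and COL4A1 went with it, from 73.3 and 57.6 CPM in C to 36 and 35.8 in T320 (-0.86 ± 0.12, adjusted p = 1.8e-05) against 66.6 and 64.9 in P320.

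These losses were shared with the surrounding chromosome. Peaks within 1 Mb of COL4A2 but outside it had a median change of -0.80 in T320, the same as the median of its own peaks, and for COL4A1 the values were -0.64 around and -0.79 within. The window offset turned the summed changes in T320 to 0.33 for COL4A2 and 0.15 for COL4A1 and left 1 of the 8 lost COL4A2 peaks, a count that was 4 without C replicate 2 or T320 replicate 2. The collagen peaks themselves made up 23 of the 186 peaks of that window. Against P320, the sums of T320 went from -0.53 to 0.75 for COL4A2 and from -0.87 to 0.41 for COL4A1 under the offset. The COL4A2 peak that fell most in T320, chr13:110350466-110350810, went from 3.36 and 3.54 CPM in C to 1.03 and 0.358 (-2.42 ± 0.64, adjusted p = 5.3e-03), and was not called without T320 replicate 2 (-1.74) or under the offset (-1.44); without T320 replicate 1 it was -3.25. In T80, 11 of 18 COL4A2 peaks were lost. COL4A3 lost 2 of 9 peaks in T320.

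Among the short-chain collagens, COL8A2, a chain of the cornea's Descemet membrane, fell in T320 and COL8A1 and COL10A1 fell in P320. The sum of COL8A2 went from 84.4 and 68.7 CPM in C to 46.6 and 36.7 in T320 (-0.88 ± 0.13, adjusted p = 3.3e-05), with 75.4 and 80.8 in P320; under the window offset it was -0.01. COL10A1, made by hypertrophic cartilage, held 20.1 and 22.8 CPM in C, 19.4 and 21.5 in T320, and 10.8 and 10.5 in P320, a change of -1.01 ± 0.15 in P320 (adjusted p = 1.9e-04). COL8A1 changed by -0.62 ± 0.08 in P320 (adjusted p = 5.4e-05), and its peak at chr3:99782826-99783855 fell from 3.61 and 4.81 CPM to 1.02 and 0.78 (-2.22 ± 0.34). For the beaded-filament genes, COL6A1, COL6A2 and COL6A3, no sum was called against C; at an unadjusted p under 0.05, 1 was higher in T320 and 1 in P320. The COL6A2 sum in P320 was 0.94 ± 0.37 above C (adjusted p = 6.4e-02), and DESeq2 (0.92), the replicate block (0.96) and the gene body without its 10 kb flanks (1.33) called it. A flanking peak of COL6A3, chr2:237314896-237316053, was gained in all 7 T populations.

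Of 92 FACIT peaks, 18 were gained (19.6%) and 16 lost (17.4%) in T320, near the 15.0% and 15.5% of all peaks. In P320 14 were lost (15.2%), against 7.91% of all peaks and 9.22% of those away from promoters and gene ends. The 16 lost became 10 without T320 replicate 2, and the 14 became 5 without P320 replicate 1. COL9A1 and COL19A1, neighbours on chromosome 6, rose, while COL9A2 and COL22A1 fell.

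COL19A1, a FACIT first found in a muscle tumour line, was summed at 31.4 and 29.2 CPM in C, 44.4 and 43.9 in T5, 59.8 and 59.9 in T20, 67.8 and 70.5 in T320, 29.9 and 28.1 in P10, and 22.1 and 24.3 in P320. All T libraries lay above all C and P libraries. The change was 1.19 ± 0.10 in T320 (adjusted p = 9.9e-08), and T320 exceeded P320 by 1.58 ± 0.10 (adjusted p = 5.8e-09). Under the window offset these became -0.47 and -0.13. The peaks of COL19A1 fall into 2 windows, where they are 7 of 66 and 2 of 178 peaks. The largest rise of any collagen peak in T320 was at chr6:69917657-69918432 in this gene, from 1.23 and 1.32 CPM in C to 13.1 and 13.6 in T320, with 0.953 and 1.3 in P320 and 5.73 and 5.36 in P10. Its change of 3.37 ± 0.30 (adjusted p = 4.9e-07) was 1.70 and still called under the window offset. In COL9A1, a chain of type IX collagen of cartilage, all 3 peaks were gained in T320, and its sum rose from 15.4 and 12.6 CPM to 32.5 and 35 (1.28 ± 0.18, adjusted p = 1.6e-05). The window offset left 1 of the 5 gained peaks of COL19A1 and 1 of the 3 of COL9A1.

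COL9A2, the partner chain of COL9A1, moved the other way. Its sum was 69.3 and 64.6 CPM in C, 25.4 and 19.8 in T320, 92.4 and 94.1 in P10 and 63.5 and 62.9 in P320. T320 lay below all of these, by -1.58 ± 0.13 from C (adjusted p = 8.8e-08; -0.84 under the window offset). Both its peaks were lost in T320, the one at the start-side end, chr1:40314778-40317033, from 33 and 45.6 CPM to 14.3 and 12.9 (-1.54 ± 0.20; -0.79 and not called under the offset). COL9A3, the third chain of type IX, had none of its 6 peaks called in any comparison by edgeR or DESeq2, although 1 was higher in T320 and 2 were lower in P320 at an unadjusted p under 0.05. Its sum held 155 and 137 CPM in C, 179 and 162 in T320 and 109 and 113 in P320. The sum was lower than C in P320 (-0.39 ± 0.10, adjusted p = 9.9e-03), though not called without C replicate 1 (-0.30) or P320 replicate 1 (-0.37), and T320 exceeded P320 by 0.61 ± 0.10 (adjusted p = 9.3e-05).

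COL14A1, which binds fibrils of type I collagen, had the most peaks of any member, and its summed level was highest in T20. Its sum was 449 and 359 CPM in C, 520 and 533 in T20, 397 and 437 in T320, 288 and 269 in P10, and 226 and 235 in P320. T320 overlapped C, and both P populations lay below every other library; P320 fell by 0.81 on the log2 scale (SE 0.09, adjusted p = 1.9e-05). The peak at the gene end, chr8:120372380-120373838, held 5.5 and 3.16 CPM in C, 34.7 and 45.7 in T20, 8.73 and 10.8 in T320 and 1.55 and 1.6 in P320. T20 stood far above the rest there, with a change of 3.26 ± 0.29, while T320 reached 1.22 ± 0.29 (0.83 and not called without C replicate 2). Of the 28 peaks, 8 were gained in T320 (4 without C replicate 2), 11 were lost in P320 (4 without P320 replicate 1, 4 under the window offset, 17 with TMM factors from gene-end peaks), and 13 were higher in T320 than in P320. The widest gap, at chr8:120161287-120161951, lay between 13.6 and 17 CPM in T320 and 0.6 and 0.892 in P320 (4.36 ± 0.53), with 5.09 and 1.04 in C.

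COL22A1, a collagen of tissue junctions, lost 12 of 26 peaks in T320 and 0 in P320, where 1 was lower at an unadjusted p under 0.05 and DESeq2 called 0. Its sum was 352 and 291 CPM in C, 256 and 199 for T5, 198 and 130 for T10, 238 and 89.9 in T40, 161 and 78.1 in T320, 261 and 264 in P10, and 261 and 273 in P320. Replicate 2 was below replicate 1 in C and in every T population, which was not so in P10 and P320. All T libraries lay below both C libraries, and the change in T320 was -1.45 ± 0.43 (adjusted p = 9.4e-03). This was -1.0 and not called without T320 replicate 2, -1.31 and not called without C replicate 1, -2.05 without T320 replicate 1 and -0.72 under the window offset. The 12 lost peaks became 6 without T320 replicate 2 and 7 under the offset. The flanking peak at chr8:138582013-138583207 fell from 46.7 and 79.2 CPM in C to 7.79 and 1.93 in T320, while P320 held 68 and 69.9. The change of -3.80 ± 0.49 (adjusted p = 1.1e-05) ranged from -5.03 without T320 replicate 1 to -3.02 without T320 replicate 2.

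The transmembrane collagens were gained at 4 (7.14%) and lost at 10 (17.9%) of 56 peaks in T320, against 15.0% and 15.5% of all peaks. COL23A1 lost 5 of 22 (3 without C replicate 1 or T320 replicate 2) and COL13A1 2 of 17. COL17A1, the hemidesmosome collagen of epithelia, had none of its 3 peaks called in any comparison by edgeR, and DESeq2 called 0 of them in T320 or P320; at an unadjusted p under 0.05, 1 was higher in P320. Of the multiplexins, COL15A1 gained 5 of 16 peaks in T320 and 6 in P10. At chr9:98989219-98990118 it rose from 1.89 and 1.27 CPM in C to 10.9 and 10.1 in T320, with 0.741 and 0.966 in P320. No library of T320 came near C or P320, and the rise was 2.75 ± 0.30 (adjusted p = 2.3e-06). A neighbouring COL15A1 peak, chr9:98992968-98994061, was open in P10 instead, at 15.5 and 16.6 CPM against 4.19 and 1.23 in C and 1.38 and 0.391 in T10. Its change in P10 was 2.63 ± 0.54, or 3.70 without C replicate 1 and 1.94 without C replicate 2, and T10 was lower than P10 by -4.30 ± 0.60 (-5.34 and -3.53 without T10 replicate 1 and 2).

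COL26A1, which is expressed in testis and ovary, had a summed level above C at the lowest dose and below it at the highest. It gained 5 of 25 peaks in T5 (3 without T5 replicate 2, 2 under the window offset) and lost 3 in T320. Over all peaks, 4.73% were gained in T5 and 15.5% lost in T320, so the lost share of this gene was not above that of all peaks. Its sum was 253 and 227 CPM in C, 393 and 385 for T5, 303 and 281 for T10, 174 and 147 in T320, 176 and 184 in P10, and 142 and 142 in P320. T5 and T10 lay above C, and T320 and both P populations below it. The change was -0.58 ± 0.08 in T320 (adjusted p = 2.5e-05) and -0.76 ± 0.08 in P320 (adjusted p = 2.1e-05), while peaks within 1 Mb outside the gene had medians of 0.12 and 0.04. In T5 the surroundings moved with the gene, with a median of 0.46 around and 0.54 inside.

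**Figure D4:**
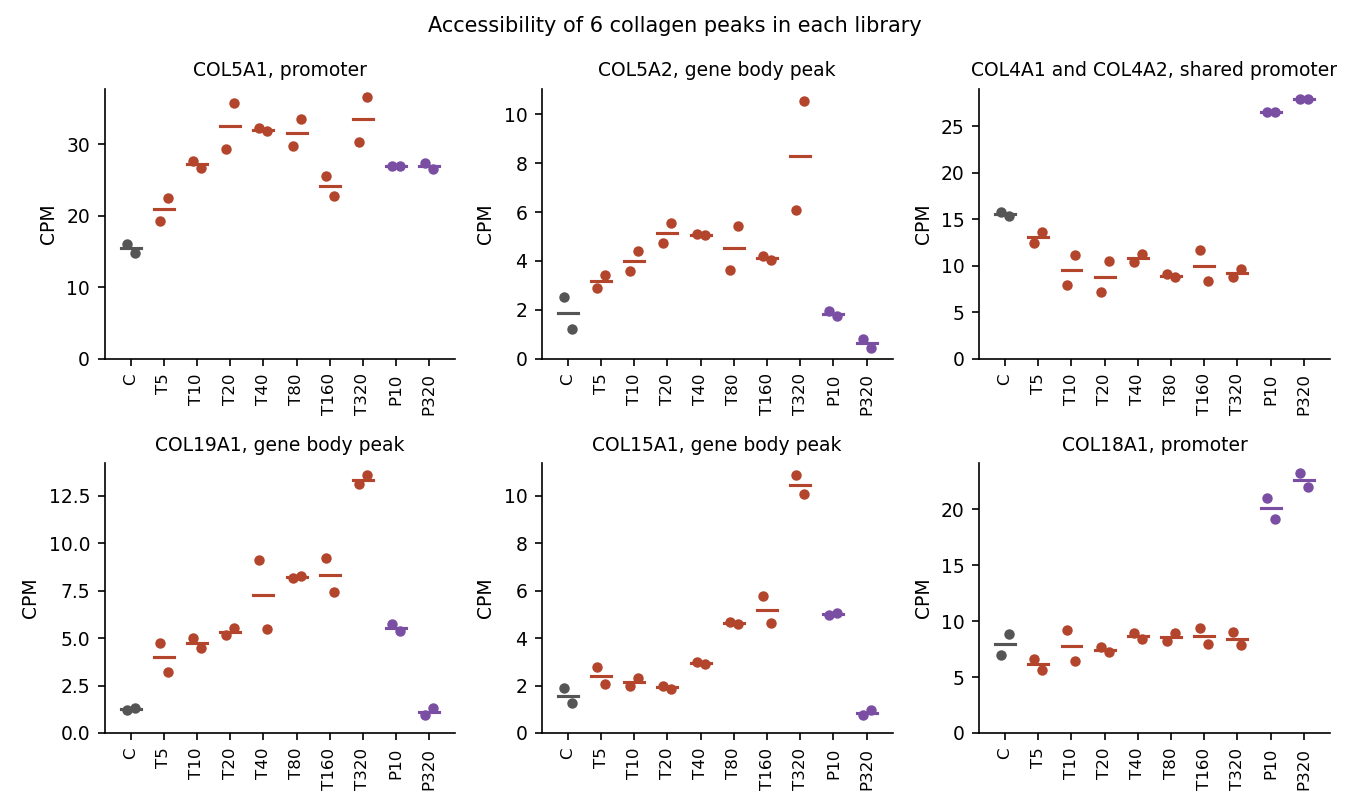
CPM in each library (points) with the mean of 2 libraries (line) at 6 collagen peaks across the 10 populations. COL5A1 and COL19A1 are above C in T320. The shared COL4A1 and COL4A2 promoter is below C in T320 and above it in P320, and the COL18A1 promoter is higher in P10 and P320 than in C and T320.

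Among the peaks called in P320, promoters were more often gained than lost and gene bodies more often lost than gained, for collagens and for all peaks, while most peaks of either kind were not called. A promoter or gene-end peak was found for 31 of the 37 genes, 17 of them by a RefSeq window from 250 bases before to 50 after the start. The 16 collagen promoter peaks were gained at 3 and lost at 1 in P320, whereas the 281 collagen peaks of gene bodies were gained at 1 and lost at 39. Of all 11365 promoter peaks 15.4% were gained and 0.458% lost in P320, and of the 88009 peaks away from gene ends 2.01% were gained and 9.22% lost. T320 was lower than P320 at 4 collagen promoter peaks, and at 20.7% of all promoter peaks. With TMM factors from gene-end peaks, which shifted the median of all peaks in P320 from -0.11 to -0.60, 1 of these 3 gains, at COL23A1, was no longer called. The 3 promoters gained in P320, COL6A2, COL18A1 and COL23A1, are shown first, then COL5A1 and COL19A1, gained in T320, and COL28A1, lost in both. Each line gives the 250 bases before the start in RefSeq (GRCh38.p14), 5′ to 3′ on the gene's strand, with motif matches in capitals: GGGCGG of Sp1 (CCGCCC on the other strand), TATAAA of the TATA box and CCAAT of NF-Y.
COL6A2: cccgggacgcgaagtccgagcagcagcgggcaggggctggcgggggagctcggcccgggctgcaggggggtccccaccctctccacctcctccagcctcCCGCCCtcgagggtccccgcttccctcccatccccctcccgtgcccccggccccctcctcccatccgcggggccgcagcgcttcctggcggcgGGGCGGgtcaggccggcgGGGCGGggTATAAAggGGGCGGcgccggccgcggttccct
COL18A1: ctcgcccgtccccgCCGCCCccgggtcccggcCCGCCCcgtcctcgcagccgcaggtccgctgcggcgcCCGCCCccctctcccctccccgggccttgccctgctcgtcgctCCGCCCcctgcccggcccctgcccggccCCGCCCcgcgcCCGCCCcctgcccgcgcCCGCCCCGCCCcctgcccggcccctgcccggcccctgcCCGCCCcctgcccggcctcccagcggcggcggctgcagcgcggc
COL23A1: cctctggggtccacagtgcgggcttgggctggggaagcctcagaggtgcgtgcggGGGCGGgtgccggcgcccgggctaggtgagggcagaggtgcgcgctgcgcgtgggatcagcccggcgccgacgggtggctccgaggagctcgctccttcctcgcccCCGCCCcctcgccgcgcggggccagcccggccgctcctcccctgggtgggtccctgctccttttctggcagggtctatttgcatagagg
COL5A1: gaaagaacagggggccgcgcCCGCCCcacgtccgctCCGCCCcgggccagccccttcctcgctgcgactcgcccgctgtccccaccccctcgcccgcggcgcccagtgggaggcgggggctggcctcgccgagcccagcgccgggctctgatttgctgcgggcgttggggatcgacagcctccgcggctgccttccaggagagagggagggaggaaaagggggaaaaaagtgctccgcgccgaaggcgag
COL19A1: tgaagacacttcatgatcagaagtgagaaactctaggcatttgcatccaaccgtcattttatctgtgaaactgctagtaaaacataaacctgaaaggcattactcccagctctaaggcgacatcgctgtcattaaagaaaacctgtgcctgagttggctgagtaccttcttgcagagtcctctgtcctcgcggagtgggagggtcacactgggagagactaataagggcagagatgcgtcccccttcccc
COL28A1: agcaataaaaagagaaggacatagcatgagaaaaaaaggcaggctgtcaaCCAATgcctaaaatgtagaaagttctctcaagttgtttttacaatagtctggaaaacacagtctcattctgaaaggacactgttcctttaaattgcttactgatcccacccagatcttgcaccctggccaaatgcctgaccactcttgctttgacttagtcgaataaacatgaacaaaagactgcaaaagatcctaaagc

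These windows lie at chr21:46097862-46098111 (COL6A2, plus strand), chr21:45404915-45405164 (COL18A1, plus), chr5:178590394-178590643 (COL23A1, minus), chr9:134641553-134641802 (COL5A1, plus), chr6:69866306-69866555 (COL19A1, plus) and chr7:7535874-7536123 (COL28A1, minus). The 3 promoters gained in P320 were GC-rich, at 79.6% G and C for COL6A2, 88.4% for COL18A1 and 74.4% for COL23A1, with 4, 9 and 2 Sp1 matches. The COL5A1 promoter, at 74.0%, held 2 Sp1 matches, and COL19A1 at 48.4% and COL28A1 at 39.6% held 0. Promoters not gained in P320 were GC-rich too, at 78.8% for COL4A2, 77.6% for COL4A1 and 76.8% for COL15A1. The remaining collagen promoters lay between 56.8% (COL21A1) and 72.8% (COL4A4), so a high GC content was not particular to the 3 gained ones. Of 6 motifs searched on both strands, Sp1 matched in 11 of 17 collagen promoters and in 56.0% of 15842 RefSeq promoters, and AP-1 (TGANTCA) in 0 of 17 and 5.04%. TEAD (GGAATG) matched in 1 of 17 and 10.1%, NF-Y in 3 and 34.5%, the E-box CAGGTG in 2 and 17.1%, and the TATA box in 2 and 9.23%. Overlapping matches, as in COL18A1, were each counted. A match is a description of letters and not a bound site.

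COL18A1, whose C-terminal fragment is endostatin, had a promoter peak of 6.98 and 8.86 CPM in C, 8.99 and 7.89 in T320, and 23.2 and 22 in P320. T320 overlapped C, and P320 lay far above both, with a gain of 1.5 ± 0.20 (adjusted p = 1.1e-04). T320 was lower than P320 by -1.43 ± 0.20 (-0.97 and not called with TMM from gene-end peaks). The COL6A2 promoter held 5.25 and 3.39 CPM in C, 11 and 5.06 in T320, 13.8 and 13.5 in P10 and 13.2 and 13.1 in P320. Both P populations were above all others, and the gain in P320 was 1.63 ± 0.33 (adjusted p = 2.2e-03). COL23A1 held 11.7 and 14.7 CPM in C, 15.8 and 15.3 in T320 and 33.2 and 31.4 in P320, a gain of 1.29 ± 0.18 (0.82 and not called with TMM from gene-end peaks).

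The COL5A1 promoter was gained in 4 of the 9 comparisons with C, those of T20, T40, T80 and T320. It stood at 16.1 and 14.8 CPM in C, 30.3 and 36.6 in T320, and 27.4 and 26.5 in P320. The gain in T320 was 1.12 ± 0.17 (adjusted p = 5.6e-05) and became 0.98, under the fold minimum, without T320 replicate 2. At COL19A1 the promoter went from 4.68 and 3.82 CPM in C to 11.3 and 13.2 in T320 (1.54 ± 0.21, adjusted p = 1.7e-05), with 7.52 and 7.88 in P320; under the window offset the change was -0.11. The COL28A1 promoter held 4.51 and 7.78 CPM in C, 1.8 and 0.762 in T320, 1.1 and 1.87 in P10 and 1.38 and 2.49 in P320. All these drug-exposed libraries lay below C. The loss was -2.34 ± 0.50 in T320 (adjusted p = 1.1e-03; -3.01 without T320 replicate 1) and -1.68 ± 0.46 in P320 (adjusted p = 1.6e-02), the latter not called without C replicate 2 (-1.22) or P320 replicate 1 (-1.27).

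COL4A1 and COL4A2 start from 1 shared promoter in opposite directions, and its peak, chr13:110306385-110309274, separated T from P. It held 15.8 and 15.4 CPM in C, 8.82 and 9.68 in T320, 26.5 and 26.5 in P10 and 28 and 27.9 in P320. T320 lay below C and P320 above it, each by less than the fold minimum (-0.75 ± 0.21 and 0.84 ± 0.20). T320 was lower than P320 by -1.59 ± 0.21 (adjusted p = 7.9e-06), which became -0.31 and no call under the window offset. The promoter shared by COL4A3 and COL4A4 held 4.02 and 4.9 CPM in C, 4.97 and 3.9 in T320 and 8.58 and 9.36 in P320. T320 was lower than P320 there by -1.03 ± 0.28 (adjusted p = 5.5e-03), which was not called with TMM from gene-end peaks (-0.57), under the window offset (-0.87) or without T320 replicate 2 (-0.85). No promoter or gene-end peak of COL12A1, COL13A1, COL15A1, COL25A1, COL26A1, COL27A1, COL1A2, COL5A3 or COL6A1 was called as gained or lost in T320 or P320.

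Peaks around a gene can move with it, so each gene's own peaks were set beside the other peaks within 1 Mb. COL5A2 stood apart from its surroundings in T320 and P320, with medians of 0.92 inside and -0.09 around in T320 and of -0.88 inside and -0.35 around in P320. In P10 it did so little, with -0.73 inside and -0.61 around. COL19A1 had 1.29 inside and 0.28 around in T320, and COL9A1 1.61 and 0.33. Under the window offset, as given above, the COL19A1 sum no longer rose in T320, and most gained peaks of both genes were no longer called. The 2 measures of the region thus differ for these genes. For COL8A2 (-0.92 inside and -0.90 around) and COL16A1 (-0.61 and -0.81) the surroundings moved as the genes did. COL11A1 had 0.42 inside and -0.58 around in T320. These medians are a description with no test, since neighbouring peaks are not independent.

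**Figure D5:**
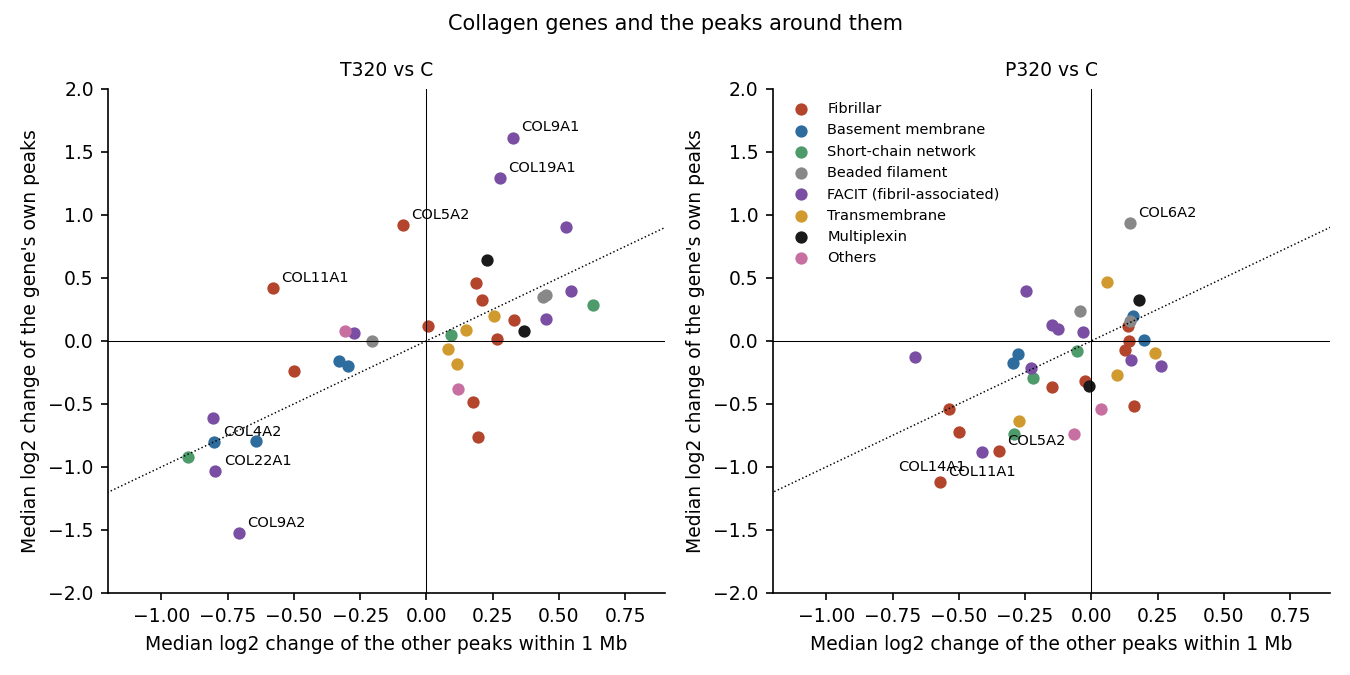
Median log2 change of each collagen gene's own peaks (y axis) against that of other peaks within 1 Mb (x axis), for T320 against C and P320 against C; the line marks equal values. In T320, COL5A2, COL9A1 and COL19A1 lie well above the line, while COL4A2 lies on it.

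In the T populations from T10 to T160 the shares of collagen peaks called were near those of all peaks. In T5, 27 collagen peaks were gained (7.69%) and 11 lost (3.13%), against 4.73% and 4.46% of all peaks, and 11 of the 27 were fibrillar. The 11 lost were 21 with the replicate number as a block and 3 with TMM factors from gene-end peaks. In T10, 35 were gained and 38 lost (all peaks 8.51% and 9.22%), and in T20, 40 were gained and 53 lost (11.2% and 13.3%). T40 had 37 gained and 44 lost (11.8% and 13.3%), T80 37 and 58 (12.3% and 13.6%), and T160 36 and 54 (11.0% and 12.5%). Against C, 9 collagen peaks (2.56%) were gained in all 7 T populations and 7 (1.99%) were lost in all 7, where 1.68% and 2.39% of all peaks were, and 150 of 351 were called in no comparison with C. Replicate 2, the deeper library, carried many of these calls: without the replicate 2 of the population compared, the gained peaks were 13 in T5, 22 in T10 and 21 in T40, and the lost peaks 2 in T5, 19 in T10, 28 in T40, 33 in T80 and 33 in T160. Without C replicate 2, T5 had 13 gained and 2 lost and T10 20 lost, and without T5 replicate 1, T5 had 4 lost.

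The 7 peaks lost in all T populations lay in COL22A1 (2 peaks), COL13A1 (2), COL4A3, COL14A1 and COL23A1 (1 each). A trend over the 7 T populations, called where the log2 level changed by 0.25 or more with each doubling of dose, rose at 13 collagen peaks and fell at 13, where 3.37% of all peaks rose and 2.35% fell. The 13 rising became 7 without T5 replicate 2, and the 13 falling became 6 without T320 replicate 2 and 20 without T320 replicate 1. The COL15A1 peak at chr9:98989219-98990118 rose by 0.36 ± 0.07 per doubling, and at COL26A1 the peak at chr7:101435668-101437488 fell by 0.32 per doubling, from 28 and 27.9 CPM in T5 to 5.82 and 4.03 in T320.

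At 10 uM, where adapted and persister cells can be compared at the same dose, collagen peaks were again called in both directions. P10 gained 29 collagen peaks and lost 43, where 9.32% and 12.8% of all peaks were gained and lost. Without C replicate 2 these were 16 and 25, and 27 were lost without P10 replicate 2. T10 was higher than P10 at 70 collagen peaks and lower at 65 (31 without T10 replicate 2), where 17.8% and 15.1% of all peaks were. Of the 72 collagen peaks called in both T320 against P320 and T10 against P10, which share no library, 42 were higher in both and 20 lower in both. Both comparisons set sorted T cells against P cells with no named sort, and the matching share over all peaks was not taken. COL5A2 was higher in T10 than in P10 at 14 of 18 peaks, and COL26A1 at 9 of 25 (4 under the window offset), while COL22A1 was lower at 6 of 26 (1 without T10 replicate 2).

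Genes that make, cross-link, cut or bind collagen were read at 1 promoter or gene-end peak each, 50 of 56 listed and 34 of them at a promoter. The shares of all promoter peaks given beside them thus come from a set that is only partly alike. In T320, 1 was gained and 1 lost, where 5.06% of all promoter peaks were gained and 4.80% lost. MRC2, a receptor that takes up collagen, rose from 21.3 and 16 CPM to 39 and 46.4 (1.20 ± 0.20, adjusted p = 1.1e-04), and GP6, the platelet collagen receptor, fell by 1.00 (SE 0.27, adjusted p = 6.1e-03). In P320, 8 of the 50 were gained, near the 15.4% of all promoter peaks gained there. They were the prolyl hydroxylases P4HA2 and P4HA3, the glycosyltransferases COLGALT1 and COLGALT2, the procollagen proteases ADAMTS2 and ADAMTS14, the cross-linking oxidase LOXL1 and the protease inhibitor TIMP3, with changes from 1.14 to 1.44. LOXL1 rose from 15.9 and 23.1 CPM in C to 53.2 and 53.1 in P320. T320 was lower than P320 at 6 of the 50 genes, and at 20.7% of all promoter peaks. The medians over the list were 0.14 in T320 and 0.49 in P320.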

How the data were processed

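Kuramochi cells of 10 populations gave 20 ATAC-seq libraries, 2 a population. A further 8 labelled samples were not analysed here. The values used are the whole-number counts of a consensus peak table, deposited without normalization. Per the submitters' processing notes, the tools were DESeq2, deepTools 3.5.1 and 3.1, HOMER 4.1, MACS2, SAMtools, Picard, Bowtie2 and Trim Galore and the build was GRCh38; the notes as given here list names alone. Whether reads or fragments were counted, how duplicates were treated and whether peak starts count from 0 are not given in the sources used here; coordinates are printed as they stand.

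Counts were fitted with edgeR 4.0.16 (R 4.3.3; robust quasi-likelihood, TMM scaling, filterByExpr) over the 10 groups of 105048 peaks, with 10 residual degrees of freedom and Benjamini-Hochberg adjustment over all peaks. With 2 libraries a group, the spread is pooled over groups by the model. Gene sums were fitted the same way over 17857 genes, with library totals and TMM factors of their own. The dose trend was fitted over the 7 T populations with replicates summed. A promoter peak overlaps the RefSeq window of a gene, and a gene-end peak lies within 1 kb of either end. The fits were tested on simulated data with known changes, and the sizes were recovered closely. Of simulated gene sums changed by a log2 of 1, only a minority passed the threshold. That simulation gave all genes the same fixed spread and changed few of them, so its share does not carry over to these data. In the data a gene sum change of -0.25 was called, at COL4A3 in T320. A gene sum that was not called may still have changed.

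Named peaks were the 6 largest rises and 6 largest falls of the 3 main comparisons among called collagen peaks whose groups did not overlap and whose higher group reached 2 CPM (3 and 3 in other comparisons), each gene's promoter or gene-end peak, and COL1A1, COL1A2, COL3A1, COL4A1, COL4A2, COL5A1, COL6A1, COL6A2, COL6A3 and COL18A1; not all are described. Peaks gained or lost in all 7 T populations, opposite between T320 and P320, or shown to describe a gene were chosen after their values were seen. The members and the lists were chosen with earlier results of these data known.

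Alternatives were DESeq2 1.42.0, TMM factors from gene-end peaks, the window offset, a filter of at least 2 CPM in 2 libraries (10 CPM for gene sums), a replicate block, gene bodies without the 10 kb flanks, and leaving out each library. As to pairing, same-numbered libraries deviated together among C and the T populations (r from 0.21 to 0.61 over 28 pairs) and not with P10 or P320 (r from -0.12 to 0.00 over 17 pairs), and the labels tie the numbers to no batch. The main fit has no replicate block.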

Additional observations from a re-analysis of the deposited data

Results flagged for a closer look

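At 11 collagen peaks T320 was called higher than C while P320 was called lower than C. These opposite calls chose the peaks and fix that T320 lies above P320, so the differences are a description. The matching count over all peaks was not taken. On the log2 scale T320 exceeded P320 by 4.36 at chr8:120161287 in COL14A1, with 3.5, 3.25, 3.22, 2.63 and 2.43 at further peaks of COL14A1. The difference was 3.72 at chr2:189285743 in COL5A2, 3.13 at chr7:94414487 in COL1A2, 2.80 and 2.79 at a pair of COL19A1 peaks, and 2.70 at chr4:109046550 in COL25A1. At each of the 11, leaving out at least 1 library ended the call of T320 or of P320 against C. The P320 value without C replicate 1 was -0.95 at COL5A2, -1.22 at COL1A2, -0.72 at COL25A1 and -0.48 at the COL14A1 peak at 120161287, none of them called. The T320 value without C replicate 2 was 0.53 at COL25A1 and 0.72, 0.58 and 0.83 at the COL14A1 peaks at 120279258, 120286852 and 120372380, also not called. Under the window offset the T320 gain was not called at COL25A1 (0.75) or at the COL19A1 peaks at 69936595 (0.04) and 69973080 (-0.37). No sort is named for P320, so the sort cannot be told apart from the kind of exposure.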

How the results depend on the processing

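Of the collagen counts, 112 of 140 values with 1 library left out and 161 of 180 other values stayed within 1.5 times the reported count; of single peaks and gene sums, 1303 of 1444 and 1695 of 1841 kept their call and direction. The cause of each change below was not tested. Replicate 1 of C and of the T populations was shallower than replicate 2; the part of depth in the small counts was not tested.

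TMM factors from gene-end peaks, which moved the median of all peaks in P320 from -0.11 to -0.60 and in T320 against P320 from 0.03 to 0.48, gave 3 lost peaks in T5, 2 gained and 102 lost in P320, 19 lower in T320 against P320, 8 rising with dose, 30 lower gene sums in P320 and 3 in T320 against P320. The window offset gave 25 lost in T10, 29 in T40, 31 in T80, 35 in T160, 43 lower in T10 against P10, 29 lower in T320 against P320, 8 rising with dose and 3 lower gene sums in T320 against P320. With the replicate block, 21 peaks were lost in T5 and 2 gene sums were higher in P320, and no other count moved by over 1.5 times; same-numbered libraries deviated together among C and the T populations and not with P10 or P320. For higher gene sums in P320, gene bodies without the flanks gave 1 and DESeq2 1.

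With 1 library left out, gained and lost peaks ranged over 13 to 27 and 2 to 9 in T5, 22 to 41 and 19 to 33 in T10, and 21 to 42 and 28 to 57 in T40. Lost peaks ranged over 33 to 57 in T80, 33 to 50 in T160 and 31 to 66 in T320. P10 gave 16 to 39 gained and 25 to 44 lost, and P320 5 to 8 and 17 to 44. Lower peaks ranged over 27 to 57 in T320 against P320 and 31 to 65 in T10 against P10, rising peaks over 7 to 14, falling peaks over 6 to 20, and lower gene sums in P320 over 10 to 15.

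The direction reversed under the window offset for 2 COL19A1 peaks, the promoter (-0.11 in T320 and -1.04 against P320) and the peak at 69973080 (-0.37 in T320). For gene sums it reversed in T320 at COL2A1 (-0.32), COL11A1 (0.018), COL24A1 (0.17), COL4A1 (0.15), COL4A2 (0.33), COL16A1 (0.33) and COL19A1 (-0.47), and in P320 at COL12A1 (0.043). Against P320 it reversed at COL24A1 (0.29), COL4A1 (0.41), COL4A2 (0.75), COL12A1 (-0.021), COL16A1 (0.60) and COL19A1 (-0.13). With TMM from gene-end peaks it reversed at COL4A1 in P320 (-0.34) and, in T320 against P320, at COL4A3 (0.22) and COL16A1 (0.095).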
